A study of Mus musculus with 6 samples.

Results

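A set of 43 cell cycle and DNA replication genes was followed through 6 RNA sequencing libraries of a mouse thymoma cell line, 1 library for each condition. The members were chosen by gene symbol, and 42 of the 43 had a row in all 6 deposited tables, among 25001 loci in all, of which 22601 carry a symbol. Cdt1, a licensing factor, was not analysed here. Plk1 occupied 2 rows, of which the annotated one on chromosome 7 was used. All 42 members reached 1 FPKM, that is fragments per kilobase of transcript per 1000000 fragments, in every library, and 41 reached 10, so none was lost to the filter on low values. The 427.1.86 thymoma cells (427 cells) were at passage 4-10 and, as controls, stably carried the pSUPER vector. The other 4 libraries came from SPPL2b knockdown cells (SP2bKD). Their labels name an SPPL2b siRNA, whereas the study's methods describe a stable shRNA in pSUPER and single-cell clones, with clone SP2bKD-10 used for transfection, so the knockdown and the choice of a clone cannot be told apart. SPPL2b is an intramembrane protease studied here for its cleavage of epithin/PRSS14. Both lines were kept without serum for 2 h and then given DMSO or 1 µM PMA, a phorbol ester that activates protein kinase C, for 2 h. SP2bKD cells were also transfected with a GFP vector alone or with GFP and Flag-EICD (N55), the tagged intracellular domain of epithin/PRSS14, and GFP-positive cells were sorted 24 h later. Serum deprivation is not stated for the sorted cells. In the text the 6 libraries keep the order 427 DMSO, 427 PMA, SP2bKD DMSO, SP2bKD PMA, SP2bKD GFP and SP2bKD GFP plus EICD.

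Proliferating cells copy their DNA in S phase and divide it in mitosis, and cyclins bound to cyclin-dependent kinases drive both steps. Genes for licensing of replication origins, for the replication fork and for nucleotide supply are transcribed mainly at the G1/S boundary under E2F factors, whereas genes for the spindle, the centromere and the mitotic kinases peak in G2 and mitosis, where many are controlled through a promoter element called the cell cycle genes homology region (CHR) and through CCAAT boxes. The measured members comprise 17 G1/S-peaking and 25 G2/M-peaking genes by this common division. In a bulk sample, fewer cells in a phase and less RNA per cell cannot be told apart.

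The knocked-down gene and the cell type were checked against the labels. Sppl2b had 9.9, 6.86, 13.4, 9.37, 11.4 and 13.2 FPKM, so it was not lower in the libraries labelled SP2bKD, and SP2bKD is used below as the label only. The study selected its knockdown clones by real-time PCR of SPPL2b mRNA and reported less PMA-induced EICD in them. St14, the gene of epithin/PRSS14, had 85.6, 105, 81.8, 100.4, 69.6 and 615 FPKM, and the construct shares its sequence. Of 9 thymic epithelial markers, 7 were at 10 FPKM or more in every library, with a summed FPKM of 6349 to 15095, while Psmb11 did not exceed 0.027. Of 8 T cell markers only Rag1 reached 1 FPKM, from a newly assembled model, and the summed FPKM was 1.96 to 3.72, with Cd3e, Cd4 and Thy1 at 0 in every library. Summed FPKM was 4.48 to 8.69 over 5 myeloid markers, 0.343 to 2.17 over 5 fibroblast markers and 0.048 to 0.431 over 4 endothelial markers. The estimated depth was 25.99 to 30.55 times 1000000 fragments per library. At this depth every member had at least 1017 estimated fragments, and the 95% counting error of a log2 ratio did not exceed 0.12, which covers counting error only. With 1 library per condition no difference has a replicate check, so no p-value is given and each value describes these libraries.

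The promoters of the members show this division of the cycle in their sequence. RefSeq promoters on GRCm38.p6, from 250 bases before to 50 bases after the transcription start, were matched for 35 of the 42 members. Searched on both strands, the CHR letters TTTGAA occurred in 16 of 21 G2/M-peaking promoters (76.2%) and in 2 of 14 G1/S-peaking ones (14.3%), beside 18.1% of all 27025 promoters in the table and 11.7% of the 4936 promoters of genes at 10 FPKM or more in every library. E2F letters (TTCCCGC or else TTGGCGC or else TTCGCGC or else TTGCCGC) occurred in 8 of 14 G1/S-peaking promoters (57.1%) and in 4 of 21 G2/M-peaking ones (19.0%), beside 9.69% of all promoters and 20.1% of those of the expressed genes. CCAAT occurred in 19 of 21 G2/M-peaking promoters (90.5%) and in 10 of 14 G1/S-peaking ones (71.4%), beside 37.9% and 39.3%. All 16 G2/M-peaking promoters with CHR letters also held CCAAT, a pair found in 7.12% of all promoters. Such matches are a description of letters, and E2F and CCAAT matches can overlap each other. The 120 bases before the RefSeq start are shown for Cdc20, Ccnf and Ube2c, which were low with EICD, for Kif11, which was low with PMA, and for 2 G1/S-peaking members, 5′ to 3′ on the gene's strand, with matches to any of these motifs on either strand in capitals.
Cdc20 (chr4:118437344-118437463, minus strand): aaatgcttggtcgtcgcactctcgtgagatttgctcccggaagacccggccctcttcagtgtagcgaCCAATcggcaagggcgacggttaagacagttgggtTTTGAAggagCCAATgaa
Ccnf (chr17:24251410-24251529, minus strand): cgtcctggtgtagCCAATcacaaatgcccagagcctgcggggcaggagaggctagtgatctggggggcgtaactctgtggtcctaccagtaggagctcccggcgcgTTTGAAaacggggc
Ube2c (chr2:164769809-164769928, plus strand): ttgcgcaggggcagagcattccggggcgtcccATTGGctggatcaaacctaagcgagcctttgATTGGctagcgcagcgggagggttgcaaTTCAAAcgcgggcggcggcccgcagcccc
Kif11 (chr19:37376262-37376381, plus strand): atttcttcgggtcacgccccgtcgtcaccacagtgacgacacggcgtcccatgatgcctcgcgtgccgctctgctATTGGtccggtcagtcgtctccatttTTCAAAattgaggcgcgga
Mcm6 (chr1:128359706-128359825, minus strand): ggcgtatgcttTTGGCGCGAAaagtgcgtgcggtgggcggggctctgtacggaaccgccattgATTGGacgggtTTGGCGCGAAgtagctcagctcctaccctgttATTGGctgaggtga
Cdc25a (chr9:109875459-109875578, plus strand): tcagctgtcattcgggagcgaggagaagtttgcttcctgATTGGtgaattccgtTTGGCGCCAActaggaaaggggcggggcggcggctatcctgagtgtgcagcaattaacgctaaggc
In Cdc20, Ccnf, Ube2c and Kif11 the CHR letters lay near the start with CCAAT upstream of them. Cdc20 held a further CCAAT between the CHR letters and the start. Mcm6 held E2F letters as 2 pairs of overlapping matches, and Cdc25a held 1 such pair beside a CCAAT. Nusap1, Birc5, Ccne1, E2f1 and Tyms held none of the 3 motifs in the window, which says nothing of the factors that may act on them.

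The median FPKM of the members was 65.5, 47.2, 67.2, 50.9, 62.9 and 51.1 in the 6 libraries. Among G2/M-peaking members the geometric mean was 65.1 FPKM in 427 DMSO, 49.2 in 427 PMA, 69.9 in SP2bKD DMSO, 52.6 in SP2bKD PMA, 61.8 in SP2bKD GFP and 47.1 in SP2bKD GFP plus EICD, so that both PMA libraries and the EICD library were the lowest. Among G1/S-peaking members it kept between 66.9 and 74.6 FPKM. The ratio of a member's highest to its lowest library ran from 1.13-fold for Pcna, the sliding clamp of DNA polymerases, to 2.34-fold for Nusap1, a spindle protein.

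**Figure D1:**
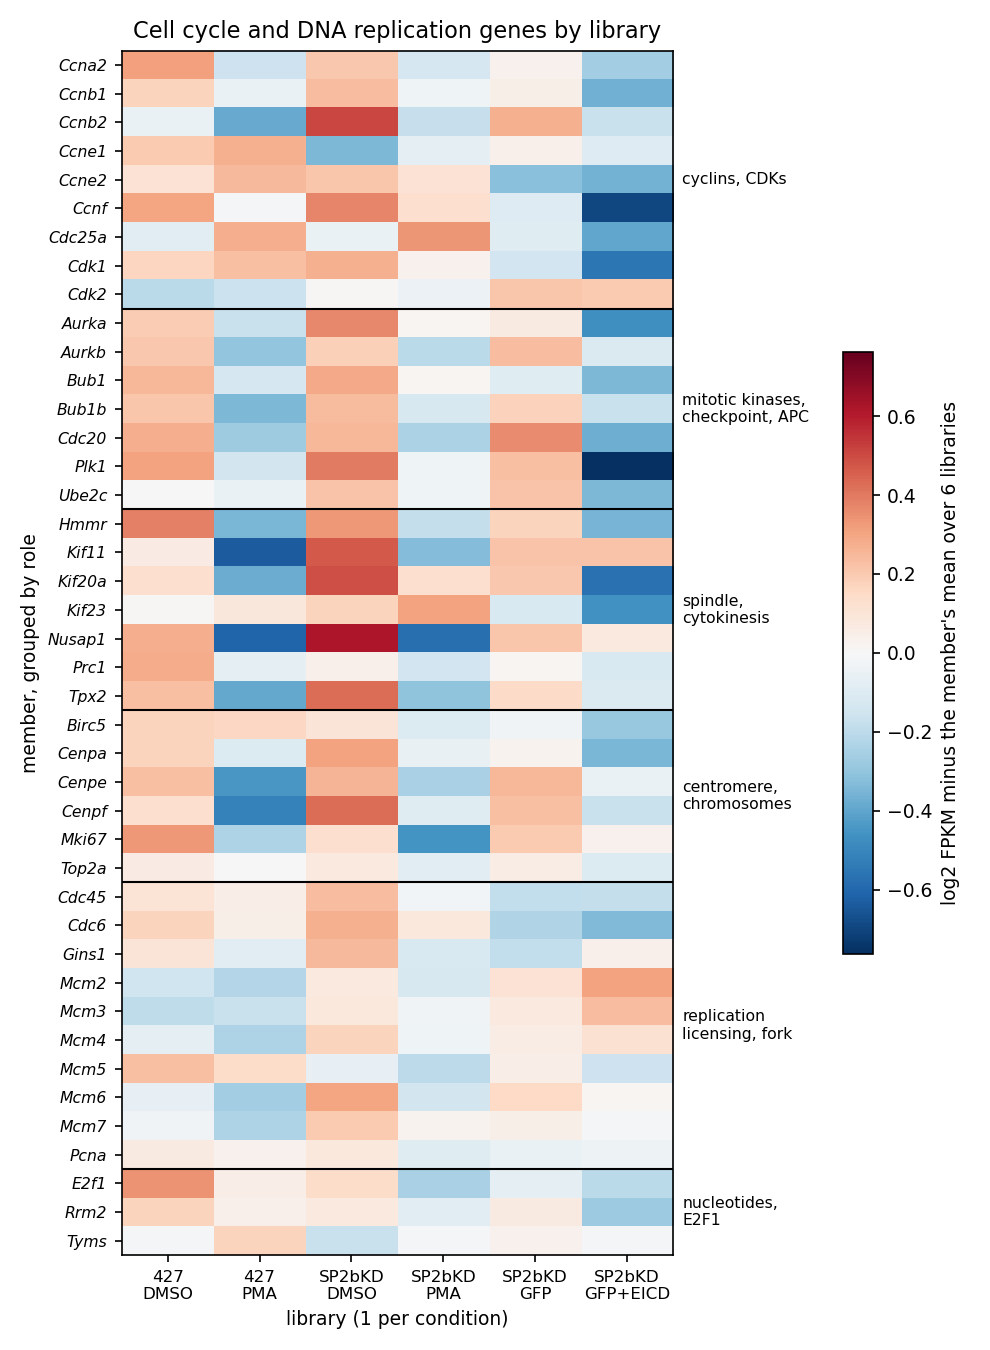
Heat map of the 42 members (rows, grouped by role) in the 6 libraries (columns), coloured by log2 FPKM minus the member's own mean over the libraries, red higher and blue lower. The spindle genes Nusap1, Kif11 and Tpx2 are bluest in the PMA libraries, and Plk1, Ccnf, Kif20a and Aurka in the GFP plus EICD library. Other spindle and centromere genes, such as Kif23, Birc5 and Cenpa, are also bluest in the GFP plus EICD library.

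The first comparison asked which transcripts differed 2 h after PMA in 427 cells. Of the 42 members, 6 were more than 1.5-fold lower (a log2 difference over 0.585) with PMA and none was more than 1.5-fold higher. They were Nusap1, Hmmr, Kif11, Cenpe, Cenpf and Tpx2, all genes of the spindle or the centromere. The 14.3% of members that were lower stand beside 14.8% of the 10981 loci at 1 FPKM or more that were lower, and 8.8% of those loci were higher. Among the 6601 loci within the members' FPKM range 6.27% were lower by that size. By any amount 34 of 42 members (81.0%) were lower, beside 62.4% of all loci. The median log2 ratio was −0.22 for the members, −0.44 for the 25 G2/M-peaking and −0.07 for the 17 G1/S-peaking ones, and −0.12 for all loci. When ratios were centred on the median of all loci, 3 members (Nusap1, Hmmr and Kif11) stayed past 1.5-fold and 27 of 42 were lower, with medians of −0.33 for the G2/M-peaking and 0.05 for the G1/S-peaking genes. With libraries scaled to the same FPKM sum, 16 were past 1.5-fold and 41 were lower. That scaling shifted every log2 ratio by about −0.25, and the share of all loci past 1.5-fold under it is not given. In 427 DMSO and 427 PMA, 3 loci of at most 122 bases held 84.8% and 85.0% of the FPKM sum. The 6 genes called were among the 25 G2/M-peaking members, of which 23 were lower by any amount.

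In SP2bKD cells 4 of the 42 members (9.52%) were more than 1.5-fold lower with PMA and none was higher, beside 17.3% lower and 8.23% higher among 10987 loci, and 7.58% lower among loci within the members' FPKM range. These 4 were Nusap1, Kif11, Tpx2 and Ccnb2. By any amount 38 (90.5%) were lower, beside 64.4% of all loci. Median log2 ratios were −0.26 for the members, −0.36 for the G2/M-peaking and −0.17 for the G1/S-peaking ones, and −0.15 for all loci. After centring on that last value the 2 members Nusap1 and Kif11 were past 1.5-fold.

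The 2 lines share no library in these comparisons, and their PMA log2 ratios correlated over the 42 members (Pearson r 0.86, Spearman rho 0.87), beside 0.59 and 0.75 for 10687 loci, which describes genes and not replicates. On the deposited scale 34 members were lower in both lines and 4 higher in both, namely Cdc25a, Ccne1, Tyms and Kif23. The same counts over all loci are not given. The 3 genes past 1.5-fold in both lines, Nusap1, Kif11 and Tpx2, were 50% of the calls in 427 cells and 75% of those in SP2bKD cells, beside 68.7% and 60.2% for all loci. The difference of the log2 ratios, SP2bKD minus 427, ran from −0.35 for Ccnb2 to 0.22 for Hmmr, with a median of −0.04.

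**Figure D2:**
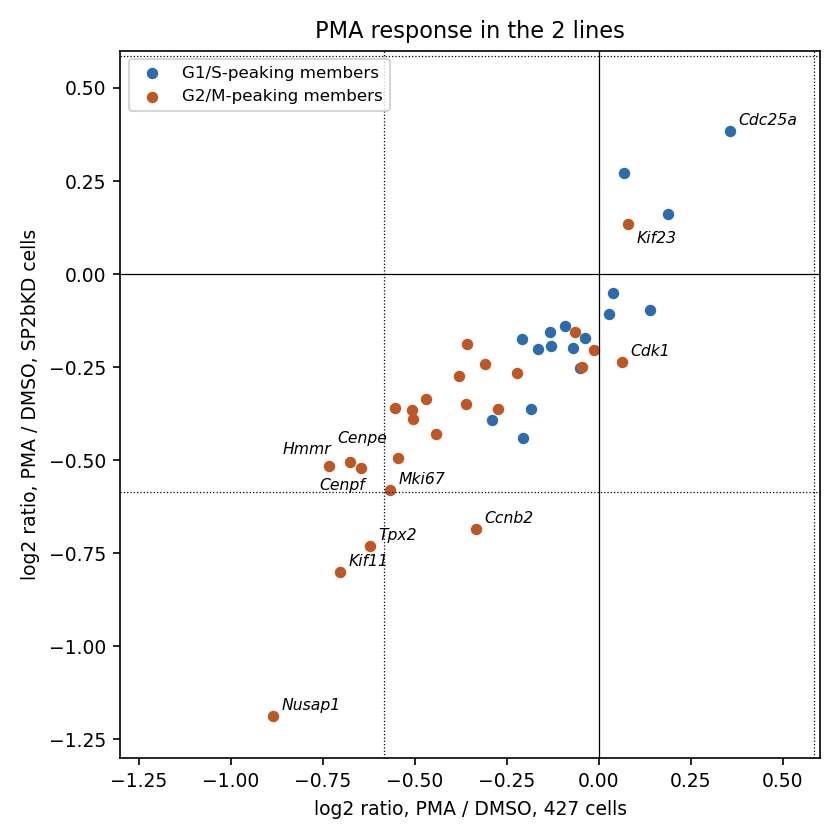
Log2 ratio of PMA to DMSO for each member in 427 cells (x axis) and in SP2bKD cells (y axis), G1/S-peaking members in blue and G2/M-peaking ones in orange, with dotted lines at 1.5-fold. Nusap1, Kif11 and Tpx2 lie below 1.5-fold on both axes, and Cdc25a is the highest on both.

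The genes of the spindle and of cytokinesis held the largest PMA differences. Nusap1 (chromosome 2, 119618298 to 119651244 on GRCm38), which bundles spindle microtubules, had 35.4, 19.2, 44.8, 19.7, 33.9 and 30.8 FPKM, and both PMA libraries were the lowest of the 6. It was 1.85-fold lower with PMA in 427 cells and 2.28-fold lower in SP2bKD cells. Its locus shares 172 bases with Oip5 on the opposite strand, which was also lower with PMA (19.9 and 10.2 FPKM in 427 cells, 20.7 and 9.06 in SP2bKD cells), and the library kit is not stated to keep strand. Kif11 (chromosome 19, 37375291 to 37421859), the motor that pushes spindle poles apart, had 56, 34.4, 74, 42.5, 62.2 and 62.3 FPKM, with the PMA libraries lowest and the sorted libraries nearly equal. Tpx2, which activates Aurora A on the spindle, had 66.6, 43.3, 76.4, 46, 62.8 and 52.7 FPKM. Its PMA libraries again lay under all others. Hmmr, a spindle assembly factor and hyaluronan receptor, had 42.5, 25.5, 40.9, 28.6, 36.6 and 25.5 FPKM, so that its EICD library was as low as its 427 PMA library. Prc1, which bundles the central spindle, had 78.6, 61.3, 66.3, 58.3, 65.1 and 59.5 FPKM, with a range of 1.35-fold. Kif23, the kinesin of the central spindle, went the other way with PMA, with 42.5, 44.9, 47.5, 52.1, 39 and 30.7 FPKM, and was lowest with EICD.

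Centromere and chromosome genes were lower with PMA in 6 of 6 members in both lines, beside 62.4% and 64.4% of all loci. In 427 cells 2 of them (33.3%) passed 1.5-fold, beside 14.8% of all loci. Birc5 stood at −0.01 in 427 cells, within its 95% counting error of 0.044. After centring on all loci, Birc5 and Top2a had opposite signs in the 2 lines. Cenpe, a kinetochore motor, had 19.2, 12, 19.6, 13.8, 19.5 and 15.8 FPKM. Cenpf, a large kinetochore protein and the lowest member by level, had 14.3, 9.14, 17.6, 12.3, 15.3 and 11.6 FPKM. Both were lowest in the 427 PMA library. Mki67, which encodes the proliferation marker Ki-67, had 73.4, 49.5, 63.7, 42.6, 66.9 and 59.7 FPKM and log2 ratios of −0.57 and −0.58 with PMA, just short of 1.5-fold, beside −0.62 for Tpx2 in 427 cells and −0.68 for Ccnb2 in SP2bKD cells just past it. Top2a, the topoisomerase that untangles sister chromatids, had 195, 187, 197, 177, 195 and 174 FPKM and varied by 1.13-fold. Birc5, the survivin subunit of the chromosomal passenger complex, had 84.1, 83.3, 80.2, 69.6, 73.4 and 61.2 FPKM and was lowest with EICD. Cenpa, the centromeric histone, ranged from 84.3 FPKM with EICD to 133 in SP2bKD DMSO.

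Among cyclins and their kinases the PMA differences ran in both directions. Ccnb1, the mitotic cyclin B1, had 90.6, 77.6, 94.8, 78.9, 83.2 and 62.4 FPKM. Ccnb2, cyclin B2, had 40.9, 32.4, 60.5, 37.6, 51.1 and 37.7 FPKM, and its SP2bKD DMSO library was the highest. Cdk1, the mitotic kinase and the most abundant member, had 376, 393, 405, 344, 303 and 229 FPKM. It was not lower with PMA in 427 cells on the deposited scale, whereas both sorted libraries lay below all others. Ccnf (chromosome 17, 24223232 to 24251409), cyclin F, had 40.6, 32.7, 42.6, 36, 30.7 and 20.4 FPKM, again with the sorted libraries lowest. Ccne1, the G1/S cyclin E1, had 31.2, 32.7, 21.4, 25.8, 27.9 and 25.3 FPKM, higher in both 427 libraries than in SP2bKD DMSO or PMA. Ccne2, cyclin E2, had 25.4, 28, 27.2, 25.5, 18.9 and 18.3 FPKM, with the sorted libraries lowest, and it shares 5622 bases with Ints8 on the opposite strand. Cdk2, the partner of cyclin E, had 36.5, 37.5, 42.3, 40.8, 48.7 and 48.3 FPKM and was highest in the sorted libraries. Cdc25a, the phosphatase that activates these kinases, had 21.2, 27.1, 21.6, 28.2, 21 and 17 FPKM and the highest PMA log2 ratio of any member in either line (0.36 and 0.38). Ccna2, cyclin A2, ranged from 77.0 FPKM with EICD to 115 in 427 DMSO.

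Mitotic kinases, checkpoint genes and genes of the anaphase-promoting complex were lower with PMA in 7 of 7 members in both lines. Of all loci 62.4% and 64.4% were lower. The group medians were −0.44 and −0.36, beside −0.12 and −0.15 for all loci. No member of the group passed 1.5-fold, beside 14.8% and 17.3% of all loci lower by that size. The PMA ratios of the 7 members were between −0.55 and −0.05 in 427 cells and between −0.49 and −0.25 in SP2bKD cells. After centring on all loci, Ube2c had opposite signs in the 2 lines. Plk1 (chromosome 7, 122159439 to 122169873), the polo-like kinase of mitotic entry, had 64, 47.1, 68.2, 50.7, 60.7 and 30.5 FPKM. Cdc20 (chromosome 4, 118432901 to 118437352), the activator of the anaphase-promoting complex, had 69.3, 47.4, 68.1, 48.3, 73.5 and 44.1 FPKM. For both, the EICD library was the lowest, and the PMA libraries lay below the remaining ones. Aurka and Aurkb, the Aurora kinases, Bub1 and Bub1b, kinases of the spindle checkpoint, and Ube2c, the ubiquitin-conjugating enzyme of that complex, had their lowest value with EICD except for Aurkb and Bub1b, whose lowest was in 427 PMA (46.2 and 43.9 FPKM).

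Replication genes showed no member past 1.5-fold with PMA in either line. Of all loci 14.8% and 17.3% were lower by that size and 8.8% and 8.23% higher. The MCM helicase subunits load on origins in G1. Mcm2 had 106, 101, 124, 108, 127 and 145 FPKM and Mcm3 had 118, 119.9, 142, 132, 142 and 159 FPKM, both highest with EICD. Mcm4 had 111, 99.1, 131, 114, 122 and 127 FPKM, and its 427 PMA library was the lowest. Mcm5 had 139.6, 131, 114, 103, 123 and 106 FPKM and was lower in SP2bKD than in 427 cells with DMSO, unlike the other licensing, helicase and clamp genes. Mcm6 had 116, 100.3, 149, 109.6, 134 and 122 FPKM, with the lowest PMA log2 ratio of the replication genes in SP2bKD cells (−0.44). Mcm7 had 206, 178, 241, 213, 216 and 208 FPKM, and it overlaps Cops6 and Ap4m1 by 64 and 421 bases. Pcna had 305, 298, 308, 274, 281 and 284 FPKM, the smallest spread of all members. Cdc6, which loads the helicase, had 47.6, 43.5, 51, 44.6, 36 and 33.4 FPKM, and Gins1, a subunit of the active helicase, had 43.7, 38.5, 48.4, 37.7, 35.8 and 41.8 FPKM. Cdc6 was lowest in the sorted libraries, and Gins1 in SP2bKD GFP. Cdc45, another helicase subunit, ranged from 37.8 to 50.6 FPKM. E2f1, the transcription factor of the G1/S programme, had 36.7, 30.1, 32, 24.4, 27.5 and 25.1 FPKM, lowest in SP2bKD PMA. Tyms, thymidylate synthase, had 79.4, 90.4, 71.4, 79.8, 82.1 and 79.9 FPKM and was higher with PMA in both lines. Rrm2, the small subunit of ribonucleotide reductase, ranged from 120.3 FPKM with EICD to 165 in 427 DMSO.

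SP2bKD cells were set against 427 cells to ask how the line labelled SP2bKD differs at the same treatment. With DMSO no member passed 1.5-fold in either direction, beside 9.31% of 11078 loci higher and 6.86% lower. By any amount 12 of 42 were lower, beside 44% of loci, with a median log2 ratio of 0.10 for the members and 0.05 for all loci. Ccnb2 was the highest at 0.56 and Ccne1 the lowest at −0.55. With PMA no member passed 1.5-fold either, beside 6.73% of 10840 loci higher and 7.08% lower. By any amount 14 were lower, beside 46.8% of loci, with Kif20a highest at 0.51 and Ccne1 again lowest at −0.34. The PMA and DMSO libraries of each line also enter the PMA comparisons, so these values are not independent of them. The split with DMSO depended on the scaling, with 17 of 42 lower at the same upper quartile and 18 after centring. Scaled to the same FPKM sum, 41 of 42 members were more than 1.5-fold higher with DMSO and 42 of 42 with PMA. In these libraries 3 loci of at most 122 bases held between 65.3% and 85.0% of that sum. The scaling raised every log2 ratio by about 0.968 with DMSO and 1.248 with PMA, more than the 0.585 of a call. These counts therefore say nothing specific to the members, and the share of all loci past 1.5-fold is not given.

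Sorted GFP-transfected SP2bKD cells differed from SP2bKD cells with DMSO in transfection, sorting and possibly serum, which cannot be told apart. No member passed 1.5-fold, beside 8.51% of 11066 loci higher and 13.3% lower. By any amount 33 of 42 (78.6%) were lower, beside 59.3% of loci, with a median of −0.16 beside −0.08, and 26 were lower after centring and 28 with libraries scaled to the same FPKM sum. Ccne2 (−0.53), Cdc6 (−0.50), Ccnf (−0.47) and Gins1 (−0.44) were the lowest, and Ccne1 (0.38) was the highest.

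GFP plus EICD was then set against GFP alone in sorted SP2bKD cells, the tagged intracellular domain being expressed from the transfected construct. Of the 42 members 4 (9.52%) were more than 1.5-fold lower with EICD and none was higher, whereas 3.11% of 11000 loci were lower and 10.9% higher, and 1.99% of the 6293 loci within the members' FPKM range were lower. Plk1 was 1.99-fold lower, Kif20a, a kinesin of cytokinesis, 1.71-fold, Cdc20 1.67-fold and Ccnf 1.51-fold, all G2/M-peaking. Ube2c lay just outside with a log2 ratio of −0.56, beside −0.59 for Ccnf. By any amount 35 of 42 (83.3%) were lower, beside 41.9% of loci, and 40 were lower with libraries scaled to the same FPKM sum. Members past 1.5-fold numbered 9 under that scaling and 7 after centring on all loci. Sum scaling shifted every log2 ratio by about −0.18, and centring subtracted 0.07 from each. Shares of all loci past 1.5-fold under them are not given. The median log2 ratio was −0.26 for the members, −0.35 for the G2/M-peaking and −0.04 for the G1/S-peaking ones, and 0.07 for all loci. Of the 25 G2/M-peaking members 24 were lower, Kif11 at 0.00 being the exception. Kif20a had 44.4, 31.2, 57.1, 44.4, 46.9 and 27.4 FPKM, with its EICD library lowest, and shares 2315 bases with Cdc23, which had 28.3 and 28.8 FPKM in the GFP and EICD libraries. The mitotic kinases, checkpoint and anaphase genes had the lowest group median (−0.54, 7 of 7 lower), and the replication genes stood at 0.01, with 6 of 10 higher, led by Gins1 (0.23), Mcm2 (0.20) and Mcm3 (0.16).

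**Figure D3:**
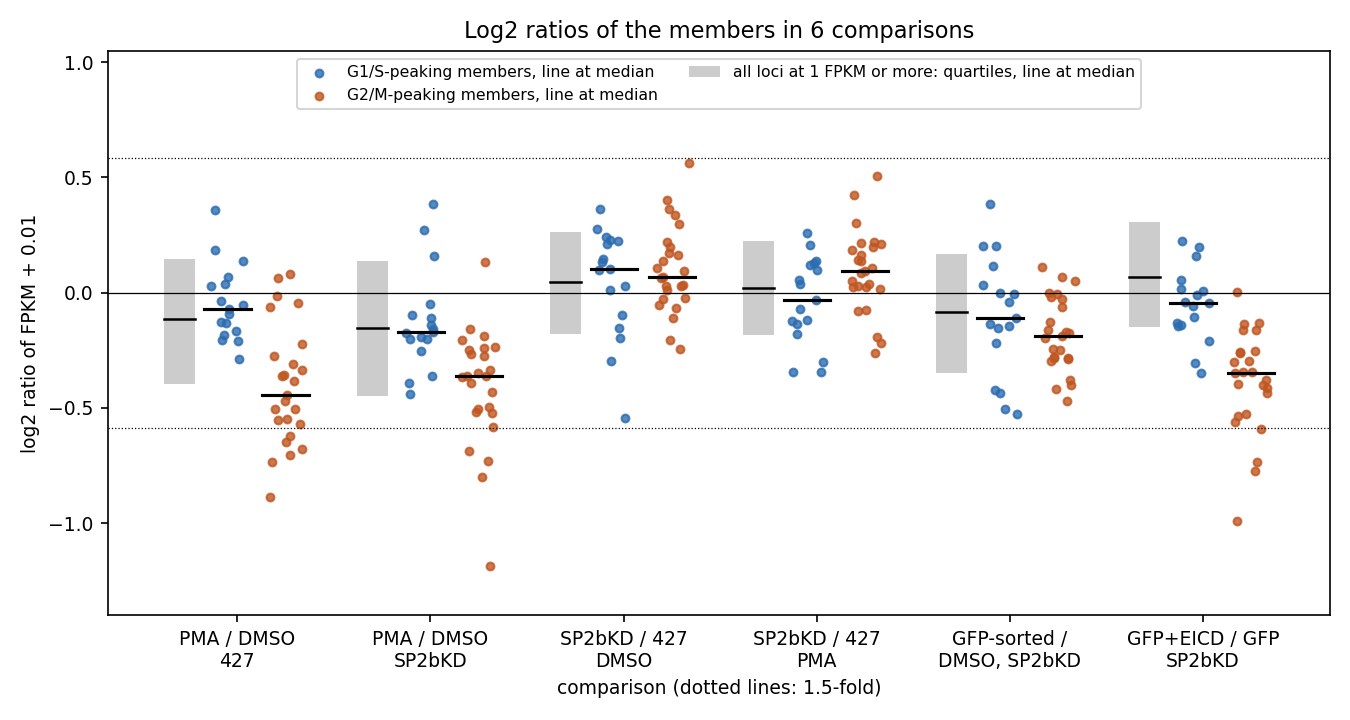
Log2 ratio of each member in the 6 comparisons (x axis), G1/S-peaking members in blue and G2/M-peaking ones in orange with a line at the median, and the quartiles and median of all loci at 1 FPKM or more in grey. The G2/M-peaking medians are −0.44, −0.36 and −0.35 for PMA in 427 cells, PMA in SP2bKD cells and EICD, below the medians of all loci.

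With so few calls an overlap of the EICD and PMA calls says little. None of the 6 genes called with PMA in 427 cells and none of the 4 called with PMA in SP2bKD cells was among the 4 called with EICD. Over all loci at 1 FPKM or more in both comparisons, 53 were called lower with PMA in 427 cells and with EICD, which was 3.55% of the PMA and 18.0% of the EICD calls, and for SP2bKD cells 62 were, 3.59% and 21.0%. Nusap1, at −0.89 and −1.19 with PMA, had −0.14 with EICD, and Kif11, at −0.70 and −0.80, had 0.00. Plk1, at −0.99 with EICD, had −0.44 and −0.43 with PMA. Over all 42 members the Pearson r of the EICD ratio was 0.34 with the PMA ratio in 427 cells and 0.17 with that in SP2bKD cells. The Spearman rho was 0.35 and 0.33. Across the 25 G2/M-peaking members the Pearson r was −0.09 and −0.19, and across the 17 G1/S-peaking ones −0.17 and −0.34. These values are a description over genes from different libraries. The difference between the 2 treatments was not tested. The median log2 ratio of the 16 G2/M-peaking members with CHR letters and of the 5 without was −0.36 and −0.38 for PMA in 427 cells, −0.36 and −0.27 for PMA in SP2bKD cells and −0.40 and −0.26 for EICD. The Pearson r of the EICD ratio with log2 transcript length was 0.03 over all 42 members, −0.25 over the 17 G1/S-peaking and 0.44 over the 25 G2/M-peaking ones, and 0.19 over 5953 loci of the same FPKM range, in which loci under 3000 bases had a median of −0.06 and longer ones 0.05. For the 25 G2/M-peaking members the medians were −0.49 for 8 shorter and −0.30 for 17 longer ones, and with PMA in 427 cells −0.40 and −0.51. The part of length in the result was not tested.

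**Figure D4:**
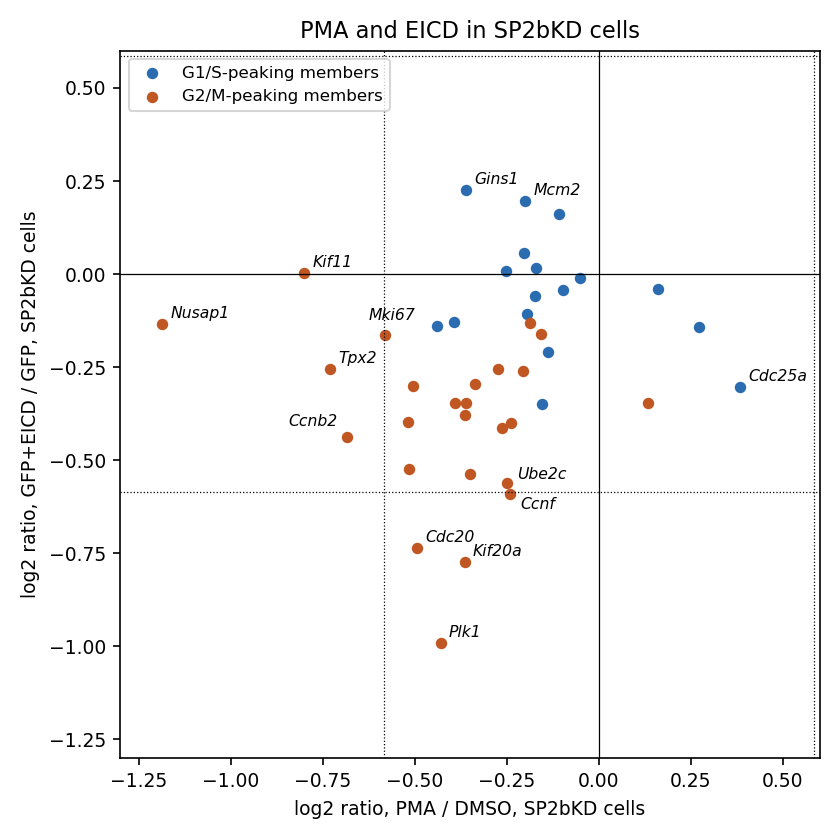
Log2 ratio of PMA to DMSO (x axis) and of GFP plus EICD to GFP (y axis) for each member in SP2bKD cells, G1/S-peaking members in blue and G2/M-peaking ones in orange, with dotted lines at 1.5-fold. No member lies beyond 1.5-fold on both axes, with Nusap1 at the left and Plk1 at the bottom.

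Other cell cycle genes, from lists of the same pathway, gave the context. Of 55 other mitotic genes 9 were more than 1.5-fold lower with PMA in 427 cells, 12 in SP2bKD cells and 2 with EICD (16.4%, 21.8% and 3.64%, beside 14.8%, 17.3% and 3.11% of all loci), with medians of −0.33, −0.38 and −0.25, and 50, 52 and 43 were lower by any amount. Of 40 other replication genes 1, 4 and 1 were more than 1.5-fold lower (2.5%, 10% and 2.5%), with medians of −0.19, −0.23 and 0.00. Among the mitotic genes Psrc1, a spindle protein, had 5.53, 2.04, 8.95, 3.69, 10.3 and 12.2 FPKM, and Pttg1, the securin that holds back separase, had 42.3, 46.8, 86.7, 44.6, 56.6 and 43.5 FPKM with its SP2bKD DMSO library highest. Sgol1, which protects centromeric cohesion, had 30.6, 27.8, 51.5, 33.7, 30.1 and 31.8 FPKM. Among the replication genes Fen1, the flap nuclease, had 58.3, 58.1, 70.8, 70.9, 70.3 and 44.3 FPKM and was lowest with EICD. Gmnn, the geminin inhibitor of licensing, had 48.6, 42.6, 86, 47.6, 57.3 and 50.6 FPKM. Orc2, of the origin recognition complex, had 35.1, 57.6, 60.5, 42.3, 53.8 and 51.1 FPKM, and Pold2, a subunit of DNA polymerase delta, had 106, 89.3, 65.6, 77.7, 93.2 and 92.3 FPKM, neither with a common direction of the PMA difference in the 2 lines.

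Of 5 G1 cyclins and their kinases 2 were more than 1.5-fold higher with PMA in 427 cells and 3 in SP2bKD cells. These shares of 40% and 60%, from a short list, stand beside 8.8% and 8.23% of all loci. Ccnd1, cyclin D1, had 23.8, 97.8, 15.8, 121, 53.1 and 29.1 FPKM, that is log2 ratios of 2.04 and 2.94 with PMA and −0.87 with EICD. Cdk6, its kinase, had 15.5, 33.3, 12.5, 39.8, 26.3 and 22 FPKM, higher with PMA in both lines. Ccnd2 had 25.8, 27.8, 33.4, 76.7, 104 and 95.9 FPKM, with little difference in 427 cells (0.11) and 1.2 in SP2bKD cells. Ccnd3 had 55.3, 54.7, 54.2, 56.6, 64 and 65.1 FPKM and Cdk4 had 260.2, 226, 254, 248, 217 and 238 FPKM, neither past 1.5-fold in any comparison. Of 6 measured CDK inhibitors 3 (50%) were more than 1.5-fold lower with PMA in each line, beside 14.8% and 17.3% of all loci. Cdkn1b, which encodes p27, had 62.5, 27.7, 78, 32.9, 52.8 and 56 FPKM. Cdkn2b, p15, had 26.6, 9.1, 34.2, 16.8, 17.4 and 18.8 FPKM and Cdkn2d, p19, had 17.8, 8.63, 18.8, 6.82, 18.9 and 20.1 FPKM, each lower in the PMA library of both lines. Cdkn2c, p18, had 36.1, 25.3, 53.7, 38.1, 50.1 and 52.3 FPKM, with log2 ratios of −0.51 and −0.49 that stayed short of 1.5-fold. Cdkn2a had 135, 132, 155, 145, 112 and 123 FPKM, without a difference past 1.5-fold. Cdkn1a, p21, had 60.9, 108, 42.5, 43.9, 77.2 and 126 FPKM, and was over 1.5-fold higher with PMA in 427 cells (0.83) but not in SP2bKD cells (0.05), and higher with EICD (0.71). That difference between lines was not tested. Cdkn1c was listed at 0 in every library.

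**Figure D5:**
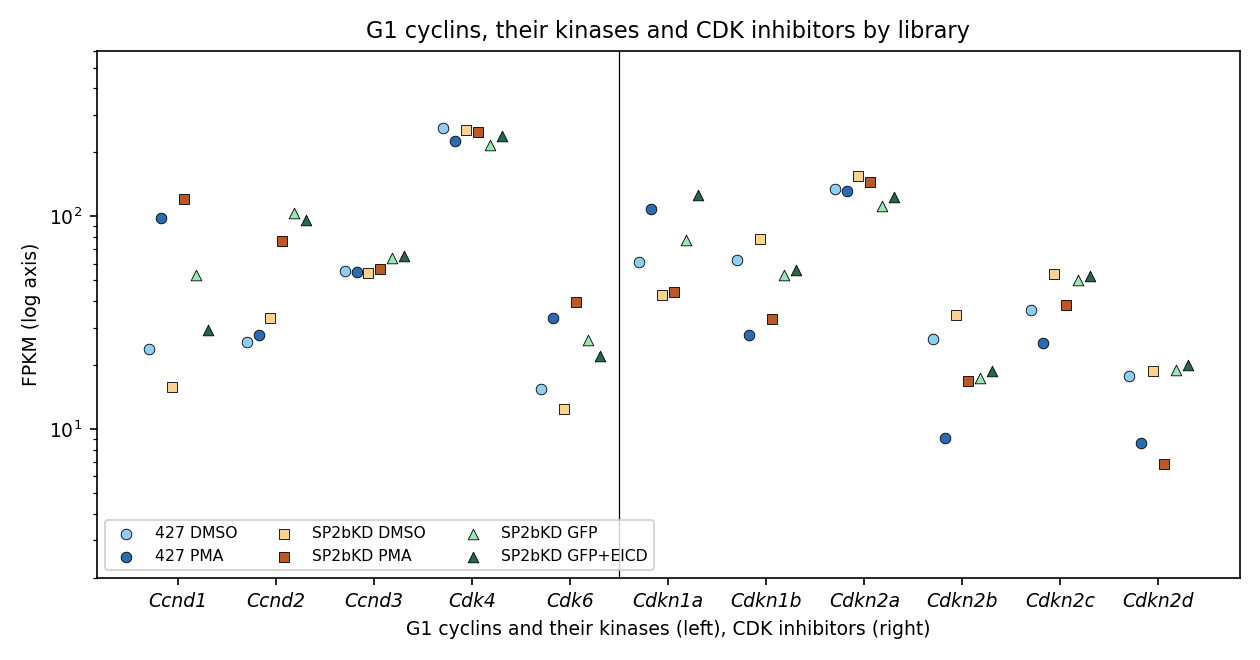
FPKM (log axis) of G1 cyclins and their kinases and of the 6 measured CDK inhibitors in the 6 libraries, 1 point per library. Ccnd1 and Cdk6 are higher and Cdkn1b, Cdkn2b and Cdkn2d lower in the PMA library than in the DMSO library of both lines.

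Of 17 measured pocket proteins, E2F and DREAM factors, 3 were more than 1.5-fold lower with PMA in 427 cells, 4 in SP2bKD cells and 1 with EICD. These shares of 17.6%, 23.5% and 5.88% stand beside 14.8%, 17.3% and 3.11% of all loci. In the same order 0, 1 and 1 were higher (0%, 5.88% and 5.88%, beside 8.8%, 8.23% and 10.9%). Rb1, the retinoblastoma protein that restrains E2F factors, had 8.91, 5.87, 7.92, 4.4, 8.73 and 14.8 FPKM and was highest with EICD. Tfdp2, a partner of E2F factors, had 14.9, 9.31, 17.3, 8.3, 9.86 and 14.5 FPKM, and E2f3 had 10.8, 14.1, 9.41, 14.4, 23.1 and 11.8 FPKM, its SP2bKD GFP library standing above the others. Early serum-response and growth genes were read in the same libraries. Fos had 1.11, 5.93, 0.823, 2.54, 148 and 244 FPKM, Egr1 had 10.3, 8.63, 5.02, 9.14, 88.8 and 171 FPKM and Junb had 46.9, 95.1, 29.7, 61.1, 103 and 178 FPKM, each far higher in the sorted libraries than with DMSO. Fosl1 had 4.71, 73.8, 1.92, 49.5, 16.7 and 27.8 FPKM and Odc1, which makes polyamines, had 103, 336, 74.1, 193, 105 and 126 FPKM, both highest in the 427 PMA library. Their part in the members' values was not tested.

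Outside these lists, the loci whose log2 FPKM over the 6 libraries followed the mean of the members most closely, of 5863 compared at 10 FPKM or more in every library, were Med15 (0.995), Acad9 (0.993), Arhgef17 (0.990), Gpn3 (0.985) and Paf1 (0.980), the values being Pearson r over 6 points that share library and depth. This is a description of the pattern, picked as the closest of many. Med15, a subunit of the Mediator complex, had 42.9, 37.1, 43.7, 37.6, 40.7 and 35.5 FPKM, lowest in the PMA and EICD libraries.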

How the data were processed

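RNA from 6 cultures was sequenced as poly(A)-selected, 100-bp paired-end libraries. Per the submitters' processing notes and the study's methods, the authors aligned reads with TopHat2 2.1.1, computed FPKM with Cufflinks 2.1.1 and normalized with Cuffdiff 2.1.1 on GRCm38. STAR 2.4.0b is also listed, without a role. The authors deposited 1 FPKM value per locus and library. FPKM depends on the gene models, and reads of overlapping loci can be shared. From these values log2 ratios were computed with 0.01 added to both libraries, over loci at 1 FPKM or more in at least 1 of them, with more than 1.5-fold as the size of a call (Python 3.11.15, NumPy 2.4.6, pandas 2.3.3, matplotlib 3.10.9). The script was tested on simulated data. Depth was estimated from the step that 1 fragment makes in long single-transcript genes. For other cell cycle genes and markers without an annotated row, the newly assembled row was used.

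The members, the lists and the tests were chosen with earlier results of these data known. Values in every library are given for members among the 4 highest or 4 lowest in any comparison and for Mki67, Top2a, Pcna, Mcm2, Ccnb1, Cdk1, Ccne1 and E2f1, and, from the other lists, for the 3 highest and 3 lowest in any comparison and for all G1 cyclins and CDK inhibitors. Alternatives were other added amounts (0.1 and 1), other minima (none and 10 FPKM), 3 scalings, the sum of repeated rows and other sizes of a call (1.25-fold and 2-fold).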

Additional observations from a re-analysis of the deposited data

Results flagged for a closer look

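In 4 members the PMA difference had opposite signs in the 2 lines, with 1 library on each side, and the difference was not tested. The share of all loci with opposite signs is not given, so the counts in this section have no reference. Given as the log2 ratio in SP2bKD cells minus that in 427 cells, it was −0.24 for Ccne2, −0.30 for Cdk1, −0.089 for Cdk2 and −0.14 for Mcm3. Cdk1, the mitotic kinase, was 0.06 in 427 cells and −0.24 in SP2bKD cells, and the other 3 were positive in 427 cells and negative in SP2bKD cells. For Cdk2 in both lines and for Mcm3 in 427 cells the log2 ratio (0.04 and −0.05, and 0.03) was within its 95% counting error (0.067 and 0.065, and 0.036). The signs also depended on the scaling, with 3 members of opposite sign at the same FPKM sum, 2 at the same upper quartile (Ccne2 and Cdk1) and 7 after centring on all loci. The 3 at the same FPKM sum (Ccne1, Kif23 and Tyms) include none of the 4 above, and the 7 after centring include Cdk1 alone of them.

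Among the named genes of the other lists, 6 also had opposite signs, of which Egr1 belongs to the early serum-response and growth genes. The differences of the log2 ratios were −1.23 for Orc2, −1.10 for Pttg1, 1.11 for Egr1, 0.49 for Pold2, 0.079 for Ccnd3 and 0.0085 for Fen1, none of them tested. Orc2 was 0.72 in 427 cells and −0.52 in SP2bKD cells, and Pttg1 was 0.14 and −0.96.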

How the results depend on the processing

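No paired analysis was possible because each condition has 1 library. The main counts and medians of the members were recomputed under each alternative, and 137 of 168 values stayed within 1.5 times the main count or within counting error of the main median. No median over all members changed sign. The median of the G1/S-peaking members did for PMA in 427 cells, with −0.07 as deposited and 0.05 after centring. For SP2bKD against 427 cells with PMA it was −0.03 as deposited and 1.21 at the same FPKM sum. Adding 0.1 and summing repeated rows moved no main value past the limits above. Dropping the filter and requiring 10 FPKM kept every member in every comparison. Their values therefore could not change, and they count among the 137. With 1 added, members lower with EICD numbered 3. At the same upper quartile, members lower numbered 9 and 5 for PMA in 427 and SP2bKD cells, and the median for PMA in 427 cells was −0.27. The larger changes follow, and scaling or centring shifts all loci of a comparison by nearly the same log2 amount.

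Scaled to the same FPKM sum, members more than 1.5-fold lower numbered 16 for PMA in 427 cells (median −0.47) and 9 for EICD (median −0.44), and members higher in SP2bKD than in 427 cells numbered 41 with DMSO (median 1.06) and 42 with PMA (median 1.30). Centred on all loci, members lower numbered 3 and 2 for PMA in 427 and SP2bKD cells (medians −0.10 and −0.11), 1 for SP2bKD against 427 cells with DMSO (Ccne1) and 7 for EICD (median −0.32), and the median for sorted cells was −0.075. With 2-fold as the size of a call, 0, 1 and 0 members were lower for PMA in 427 cells, PMA in SP2bKD cells and EICD. With the smaller size of a call, members lower numbered 17, 19, 1, 2, 8 and 16 in the 6 comparisons, in the order PMA in 427, PMA in SP2bKD, SP2bKD against 427 with DMSO and with PMA, sorting and EICD, and members higher numbered 1, 1, 5, 2 and 1 in the first 5. The shares of all loci under these alternatives are not given, so the member counts in this section have no reference.

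Among the 14 single-gene calls, Cenpe (−0.56), Cenpf (−0.53) and Tpx2 (−0.51) for PMA in 427 cells and Ccnb2 (−0.53) and Tpx2 (−0.58) for PMA in SP2bKD cells dropped under 1.5-fold after centring, and Ccnf (−0.57) for EICD when 1 FPKM was added. None changed sign. Counting error was at most 0.12 on the log2 scale, and the spread between cultures is unknown.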
